A study of Mus musculus with 384 samples.

Results

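The cadherins described here are *Cdh2*, *Cdh4*, *Cdh6*, *Cdh7*, *Cdh8*, *Cdh9*, *Cdh10*, *Cdh11*, *Cdh12* and *Cdh13*, 10 gene entries found by symbol among 26749 entries with a read in a table of 384 single cells. They were examined in the 209 cells (54.4%) with at least 500000 reads on genes. Each cell came from 1 of 8 C57BL6/J mice of the genotype DATIRESCre;Ai9, 3 labelled female and 5 labelled male, aged P24 to P36. The text that describes the series gives another count of each sex and a narrower range of ages, and the labels of the samples were used here. In these mice Cre recombinase made from the dopamine transporter locus switches on the red reporter tdTomato, so that the label records present or past activity of that locus and reaches any cell that has used it. Cells were sorted as tdTomato+ and propidium iodide negative from dissected midbrain that included the hypothalamus, and mRNA was copied and amplified on Fluidigm C1 chips, with 1 run per mouse, so that mouse and run cannot be told apart. All mice shared the same genotype and received no treatment, and the groups compared are classes of cells within a mouse (*Neurod6*+ against *Neurod6*-, *Grp*+ against *Grp*-, *Aldh1a7*+ against *Aldh1a7*-) and the sexes.

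Classical cadherins are calcium-dependent adhesion proteins of the plasma membrane that bind mainly cadherins of the same or a closely related kind on the next cell and hold on to actin through catenins. In the nervous system they take part in sorting neurons into nuclei, in the growth of axons and in the making of synapses. *Cdh2* (N-cadherin) and *Cdh4* (R-cadherin) are type I cadherins, *Cdh6* to *Cdh12* are type II cadherins, and *Cdh13* (T-cadherin) is anchored in the membrane by a lipid and lacks the cytoplasmic tail that binds catenins. The classes used here rest on genes that divide midbrain dopamine neurons: *Neurod6*, a transcription factor, and *Grp*, a neuropeptide, mark mostly ventral tegmental neurons, and *Aldh1a7*, an aldehyde dehydrogenase, is found mostly in ventral nigral neurons.

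The 209 cells held between 500672 and 1544810 reads on genes, with a median of 780466, and each mouse gave between 12 and 45 of them. *Th*, the rate-limiting enzyme of dopamine synthesis, had at least 10 reads in 198 cells and *Slc6a3*, the dopamine transporter, in 205. With 10 reads of a gene as the minimum for a positive cell, 49 cells were *Neurod6*+, 77 *Grp*+ and 74 *Aldh1a7*+, and 43 cells were both *Neurod6*+ and *Grp*+. Of the 74 *Aldh1a7*+ cells, 41 had neither *Neurod6* nor *Grp*, and the rest were also positive for 1 or both. The *Aldh1a7* comparison therefore does not set nigral against ventral tegmental neurons. *Aldh1a7* is a near copy of *Aldh1a1*, and the levels of the pair were correlated over the 209 cells (Spearman's rho 0.79). Reads of *Aldh1a7* may in part belong to *Aldh1a1*, which was not tested and which the correlation does not show. No pair of cells had identical counts. Intervals given for shares of cells are exact binomial 95% intervals and cover counting error only.

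On GRCm38, RefSeq placed *Cdh8* (chr8:99024471-99417666, minus strand), *Cdh11* (chr8:102632095-102785493, minus strand) and *Cdh13* (chr8:118140017-119324929, plus strand) on chromosome 8. A second set lay on chromosome 15, with *Cdh6* (chr15:13028699-13176407, minus strand), *Cdh9* (chr15:16728550-16857138, plus strand), *Cdh10* (chr15:18818869-19016206, plus strand) and *Cdh12* (chr15:20448878-21598421, plus strand). *Cdh7* was on chromosome 1 (chr1:109982237-110145272, plus strand) and *Cdh4* on chromosome 2 (chr2:179442423-179899377, plus strand). Exons of *Cdh8*, *Cdh9* and *Cdh12* overlap exons of annotated noncoding genes by 23, 224 and 198 bases, and reads there cannot be assigned with certainty.

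RefSeq promoter sequence was matched for 6 of the 10 genes, and 2 windows are shown because *Cdh8* and *Cdh6* are among the genes that the class comparisons turn on. Each is the 250 bases before a listed transcript start on GRCm38.p6, 5′ to 3′ on the gene's own strand, and the RefSeq gene span runs farther upstream than either start. The *Cdh8* window lies at chr8:99416472-99416721 (minus strand) and the *Cdh6* window at chr15:13173676-13173925 (minus strand). Capitals mark the E-box CANNTG, the core bound by basic helix-loop-helix factors, the family of Neurod6.
Cdh8: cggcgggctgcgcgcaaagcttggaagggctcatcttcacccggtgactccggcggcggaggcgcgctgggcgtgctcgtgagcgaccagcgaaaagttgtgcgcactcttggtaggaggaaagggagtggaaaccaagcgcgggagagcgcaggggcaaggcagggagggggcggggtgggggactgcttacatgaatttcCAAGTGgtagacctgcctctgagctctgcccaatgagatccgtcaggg
Cdh6: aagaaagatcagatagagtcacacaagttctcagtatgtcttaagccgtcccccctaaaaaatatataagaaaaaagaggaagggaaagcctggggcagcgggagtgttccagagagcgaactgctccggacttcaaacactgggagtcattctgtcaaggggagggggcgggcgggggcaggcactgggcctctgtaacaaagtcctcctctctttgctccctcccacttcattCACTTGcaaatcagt
The *Cdh8* window held 1 E-box at position -48 from the start and the *Cdh6* window 1 at -15, and 66.2% of 32851 RefSeq promoter windows of this length held at least 1, so that these matches are a description only. The NeuroD-type E-box CATCTG or CAGATG, present in 14.4% of windows, the homeobox site TAATCC or GGATTA in 6.25% and the Nr4a2 site AAAGGTCA or TGACCTTT in 1.34% were in neither window.

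All 10 cadherins were found in these cells, and *Cdh13* and *Cdh8* stood above the others. Levels were compared between genes per length, in CPM (the count of a gene scaled to a common number of reads per library) per kilobase of exon, with the cells of each mouse summed. On this scale *Cdh13* reached 45.2 ± 13.1 (SD, n = 8 mice) and *Cdh8* 31.7 ± 12.0, followed by *Cdh4* at 10.0 ± 6.55, *Cdh11* at 8.63 ± 3.43, *Cdh9* at 6.94 ± 1.39 and *Cdh2* at 6.60 ± 3.90. The lowest were *Cdh6* at 4.27 ± 2.15, *Cdh10* at 4.00 ± 0.782, *Cdh7* at 2.82 ± 2.28 and *Cdh12* at 1.24 ± 1.27. *Cdh13* was above *Cdh8* in 7 of 8 mice and *Cdh8* above *Cdh4* in 7 of 8. The order of each of the other pairs of neighbours held in 5 or 6 of 8 mice, and the ranges over mice overlapped for every pair of neighbours, so that the order from *Cdh4* to *Cdh12* is not set beyond the spread between mice.

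**Figure D1:**
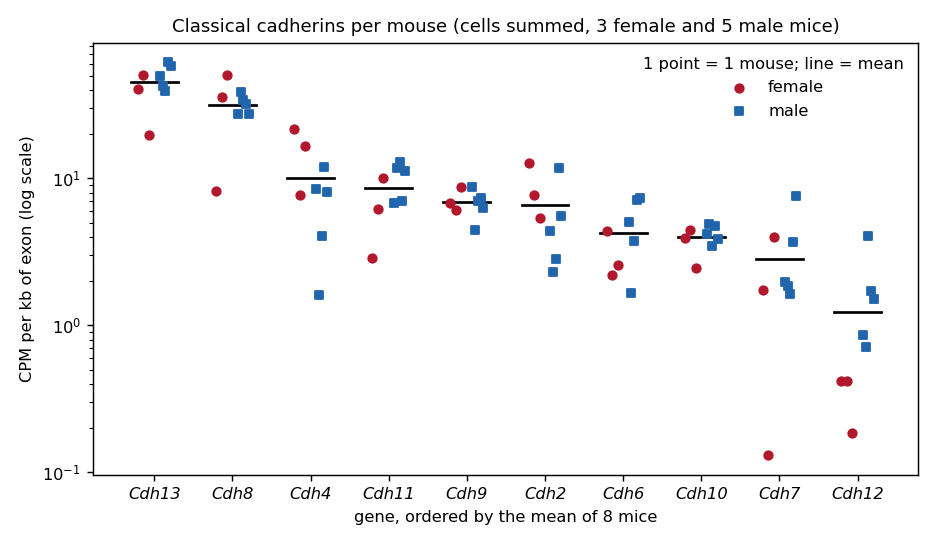
Level of each cadherin in CPM per kilobase of exon (log scale) in each of 8 mice, with the cells of a mouse summed. Red circles are the 3 female and blue squares the 5 male mice, and lines are means over mice. *Cdh13* and *Cdh8* lie above the rest in most mice, and *Cdh7* and *Cdh12* spread the most.

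Among the type I genes, *Cdh2* had at least 10 reads in 112 of 209 cells (53.6%, interval 46.6 to 60.5) and *Cdh4* in 83 (39.7%, interval 33.0 to 46.7). Most of the level of *Cdh4* came from few cells: in the cells positive for it the median was 86.4 CPM, while the median over all cells was 3.89 CPM. *Cdh4* ranged over mice from 11.7 to 157.4 CPM, with a median of 60.4. *Cdh2* ranged from 18.7 to 102.7 CPM, with a median of 43.9. The same mouse, mouse 3, was lowest for both type I genes and mouse 1 was highest for both.

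Of the type II genes, *Cdh8* was detected in 168 cells (80.4%, interval 74.3 to 85.5) and *Cdh11* in 151 (72.2%, interval 65.7 to 78.2). *Cdh10* was detected in 100 cells (47.8%), *Cdh6* in 73 (34.9%), *Cdh7* in 70 (33.5%) and *Cdh9* in 64 (30.6%). *Cdh12* was the rarest, in 20 cells (9.57%, interval 5.94 to 14.4). When each cell was thinned to 500000 reads, the shares of the 10 genes lay between 8.61% for *Cdh12* and 83.3% for *Cdh13*, with *Cdh2* at 44.0%, *Cdh8* at 78.5% and *Cdh11* at 64.1%.

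The type II genes differed in how even they were over mice. *Cdh9* and *Cdh10* ranged over mice by 1.95-fold and 1.99-fold. *Cdh7* ranged from 1.32 CPM in mouse 4, where none of 12 cells had 10 reads, to 76.2 CPM in mouse 8, where 12 of 21 did. *Cdh8* was lowest in mouse 1, at 63.4 CPM with 6 of 18 cells positive, and lay between 212.4 and 389.5 CPM in the other mice. *Cdh12* ranged from 1.17 to 25.7 CPM.

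*Cdh13* was the most frequent, in 179 cells (85.6%, interval 80.1 to 90.1), with a median of 453.3 CPM in positive cells and a highest value of 2429.2 CPM. By mouse it ranged from 221.5 CPM in mouse 6 to 691.9 CPM in mouse 7, with a median of 516.3. All 21 cells of mouse 8 and 44 of 45 cells of mouse 3 were positive. *Cdh13* was low in cells with little *Th*: 6 of the 23 cells with *Th* under 500 CPM were positive for it (26.1%, interval 10.2 to 48.4), against 173 of the 186 cells with more *Th* (93.0%, interval 88.3 to 96.2), while *Cdh2* was positive in 19 of 23 (82.6%) and 93 of 186 (50.0%). The median depth of these cells was 691056 and 783118.5 reads, and thinning left *Cdh13* at 21.7% and 90.9% and *Cdh2* at 69.6% and 40.9%.

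Single cells carried several cadherins at once. The median was 5 of the 10 per cell (quartiles 4 and 6, range 0 to 9), 179 cells had between 3 and 7, and 3 cells had 0 or 1. By mouse the median lay between 4 and 6. On the scale per kilobase, *Cdh13* was the highest cadherin in 102 cells (48.8%) and *Cdh8* in 63 (30.1%), *Cdh4* in 15 and *Cdh2* in 7, and each of the other 6 genes led in at most 6 cells.

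The 209 cells held 129 different combinations of the 10 genes, of which 88 were seen in 1 cell each. The most frequent, *Cdh8* with *Cdh9*, *Cdh10*, *Cdh11* and *Cdh13*, was found in 7 cells of 4 mice. *Cdh4* with *Cdh6*, *Cdh8*, *Cdh10*, *Cdh11* and *Cdh13* was found in 6 cells of 4 mice. A shared core of *Cdh8*, *Cdh11* and *Cdh13* was present in 128 cells (61.2%), with or without others, and 3 cells had none of these 3. The number of combinations depends on the minimum of 10 reads and on depth.

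For the 45 pairs of cadherins, the share of cells positive for one gene was set beside the presence of the other. The widest differences were among the frequent genes. *Cdh11* was positive in 78.2% of *Cdh13*+ and 36.7% of *Cdh13*- cells, and in 78.6% of *Cdh8*+ and 46.3% of *Cdh8*- cells. Taken mouse by mouse, where both kinds had 3 or more cells, the share of *Cdh13* was higher in *Cdh11*+ than in *Cdh11*- cells in 5 of 6 mice, and that of *Cdh11* was higher in *Cdh8*+ than in *Cdh8*- cells in 3 of 5. Some pairs were also compared with the product of their shares, which is the number of cells that unlinked detection over the 209 cells would give and which frequent genes cannot exceed by much. *Cdh6* and *Cdh12* were together in 11 cells against a product of 6.99, and *Cdh4* and *Cdh12* in 3 cells against 7.94. *Cdh12* was positive in 20 cells only, so that these are small numbers. *Cdh9* and *Cdh10* were together in 37 cells against 30.6, and *Cdh10* was positive in 57.8% of *Cdh9*+ cells and 43.4% of *Cdh9*- cells, with the higher share in *Cdh9*+ cells in 7 of 8 mice. *Cdh7* and *Cdh8* were together in 49 cells against 56.3, with *Cdh8* in 70.0% of *Cdh7*+ and 85.6% of *Cdh7*- cells. In levels, the highest of the 45 Pearson correlations of log2(CPM + 1) over the 209 cells was 0.51, between *Cdh8* and *Cdh11*, and the lowest was -0.21, between *Cdh7* and *Cdh8*. The cells share 8 runs and differ in depth, and these values are descriptions.

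**Figure D2:**
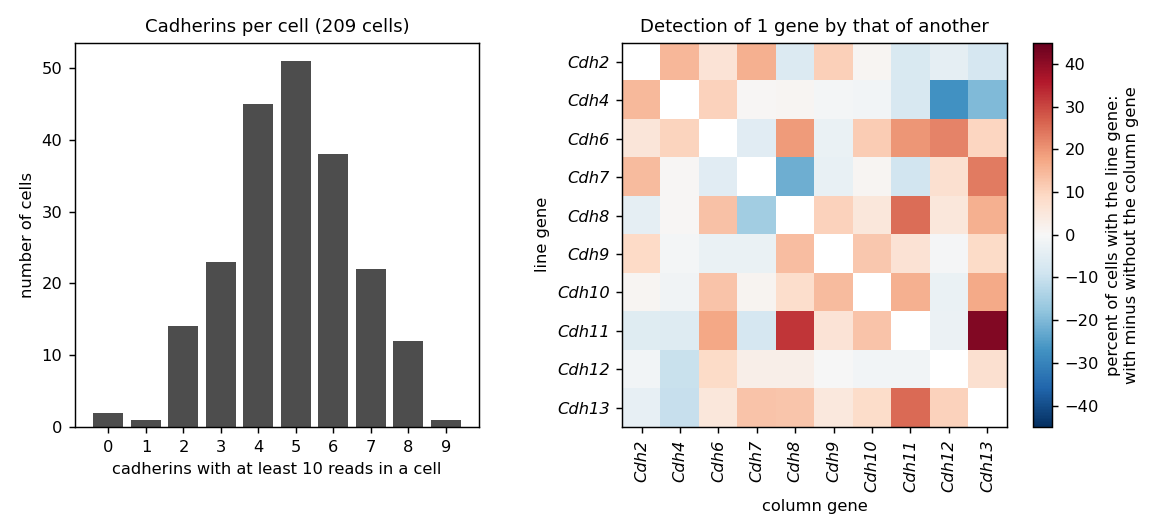
Left, number of cells by how many of the 10 cadherins had at least 10 reads, over 209 cells, with most cells at 4, 5 or 6. Right, percent of cells positive for the gene of the line among cells with the gene of the column minus that among cells without it (red, higher; blue, lower). The darkest red squares are among *Cdh8*, *Cdh11* and *Cdh13*, and the blue ones include *Cdh4* by *Cdh12* and the pair *Cdh7* and *Cdh8*.

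Which cadherins differ between *Neurod6*+ and *Neurod6*- cells was asked in sums of reads per mouse and class, over the 6 mice with at least 3 cells in each class (47 positive and 133 negative cells). *Cdh13* rose in *Neurod6*+ cells, and *Cdh6* had the largest log2 difference of the 10 but did not pass the test. In edgeR's quasi-likelihood test, 1 of the 10 cadherins passed an adjusted p of 0.05, beside 7 of 12605 genes (0.0555%), and DESeq2 called 2 of the 10 beside 127 of 12027 genes (1.06%). Both counts over all genes include *Neurod6* itself, which the class rule sets. At an unadjusted p under 0.05 there were 2 of the 10, beside 6.2% of all genes. DESeq2 calls are given as an alternative only. In simulated counts DESeq2 made more false calls than edgeR in every comparison. Those counts were drawn with dispersions estimated by edgeR and without a mouse effect, so that they do not rank the tools for these data. The negative cells share the mice and runs of the positive ones, and they are a mixture of the other classes.

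*Cdh13* stood at 872.0, 844.7, 767.7, 1428.0, 963.5 and 900.9 CPM in the *Neurod6*+ cells of mice 1, 2, 3, 5, 7 and 8. In the *Neurod6*- cells of the same mice it stood at 369.3, 430.4, 400.8, 259.4, 501.3 and 406.6 CPM. The classes did not overlap, and every mouse was higher in *Neurod6*+ cells. The means were 962.8 ± 236.9 and 394.6 ± 79.7 CPM (SD, n = 6 mice), a log2 difference of 1.29 (SE 0.19, edgeR adjusted p = 0.0400). All 49 *Neurod6*+ cells were positive for *Cdh13* (interval 92.7 to 100%) against 130 of 160 *Neurod6*- cells (81.2%, interval 74.3 to 87.0). With the mouse as a block the log2 difference was 1.27 but the adjusted p was 0.144, and the 1 gene called of all tested (0.00793%) was *Neurod6* itself. The call was also lost without mouse 1 (adjusted p = 0.0854), mouse 2 (0.104), mouse 5 (0.0739), mouse 7 (0.153) or mouse 8 (0.155), with a log2 difference between 1.05 and 1.36, and the adjusted p of all 17 alternatives ran from 2.71e-06 to 0.195.

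*Cdh6*, a type II cadherin, stood at 129.9, 74.6, 18.2, 113.0, 98.1 and 110.6 CPM in the *Neurod6*+ cells of mice 1, 2, 3, 5, 7 and 8, and at 21.5, 33.0, 13.9, 19.7, 39.9 and 22.3 CPM in their *Neurod6*- cells. Mouse 3 was low in both classes, and in each of the other mice the *Neurod6*+ value was above every *Neurod6*- value. The log2 difference was 1.86 (SE 0.42) with an edgeR adjusted p of 0.183 (unadjusted 0.000507). DESeq2 called *Cdh6* with an adjusted p of 0.00182, and edgeR called it without mouse 3 (adjusted p = 0.0362). In cells, *Cdh6* was positive in 32 of 49 *Neurod6*+ (65.3%, interval 50.4 to 78.3) and 41 of 160 *Neurod6*- cells (25.6%, interval 19.1 to 33.1), with the higher share in *Neurod6*+ cells in 6 of 6 mice, and thinning left 61.2% and 22.5%.

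*Cdh12* had a log2 difference of 1.79 (SE 1.13, edgeR adjusted p = 0.924), which rested on mouse 5. Its levels in *Neurod6*+ cells were 12.9, 0.925, 10.2, 141.5, 2.42 and 2.5 CPM in mice 1, 2, 3, 5, 7 and 8, against 0.545, 7.30, 3.24, 4.81, 17.1 and 16.4 CPM in *Neurod6*- cells. Mouse 5 alone was high, 3 of 6 mice were higher in *Neurod6*+ cells, and without mouse 5 the log2 difference turned to -0.64. In mouse 5, 3 of the 6 *Neurod6*+ cells were positive for *Cdh12*, at 210.7 to 394.7 CPM.

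The other 7 cadherins had log2 differences between -0.90 (*Cdh9*) and 0.85 (*Cdh8*), with edgeR adjusted p from 0.811 to 1.0. *Cdh8* was higher in *Neurod6*+ cells in 5 of 6 mice, at 313.8 ± 84.6 against 173.5 ± 92.8 CPM, with overlapping ranges. *Cdh9* was lower in 5 of 6 mice, at 14.4 ± 10.8 against 27.0 ± 7.27 CPM. *Cdh2* (-0.81), *Cdh10* (-0.12), *Cdh4* (-0.053), *Cdh7* (0.18) and *Cdh11* (0.40) differed by less than 1 on the log2 scale. The median log2 difference of the 10 was 0.29, beside 0.00 over all genes tested.

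*Neurod6* itself was at 151.0 ± 61.2 CPM in the positive and 0.207 ± 0.135 CPM in the negative cells, which the class rule sets. The summed level of 9 dopamine markers ran from 13217.1 to 23834.9 CPM in *Neurod6*+ and from 7979.7 to 17894.0 CPM in *Neurod6*- sums, with none of the 9 called. The oligodendrocyte markers reached 2696.8 CPM in the highest *Neurod6*- sum against 131.6 CPM in the highest *Neurod6*+ sum, with *Mog* at 0 throughout. Astrocyte markers reached 642.9 against 3.68 CPM and the 3 GABA neuron markers 1670.0 against 333.8 CPM in the highest *Neurod6*- and *Neurod6*+ sums. With cells that had both *Th* and *Slc6a3* only, *Cdh13* had a log2 difference of 1.20 (adjusted p = 0.0525).

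**Figure D3:**
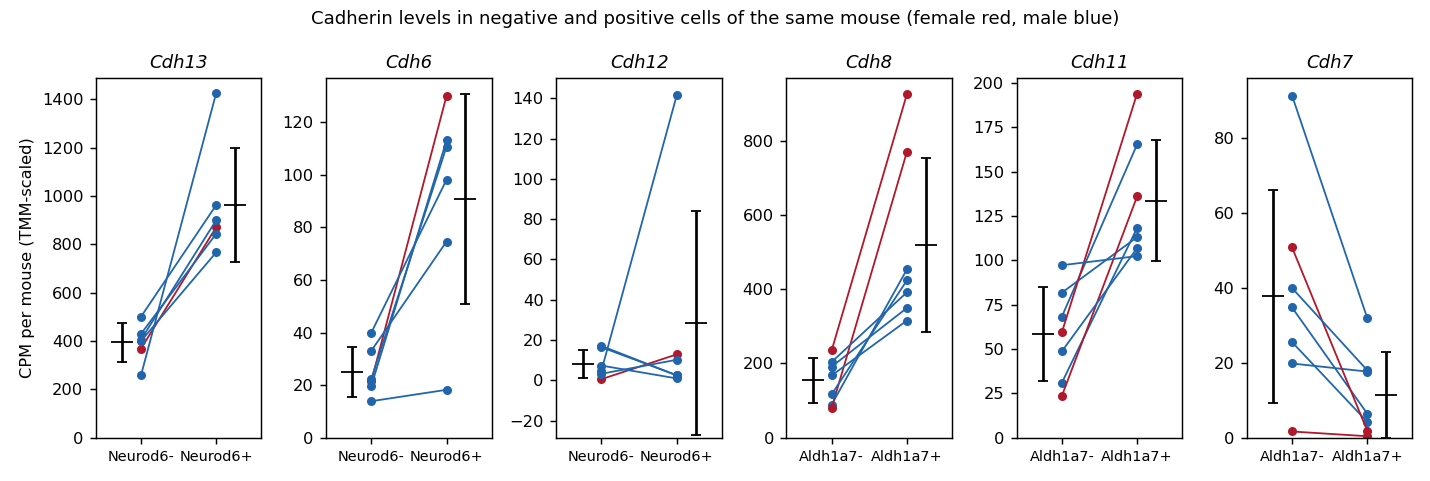
CPM of 6 cadherin comparisons in the negative (left) and positive (right) cells of each mouse, joined by a line (red, female; blue, male), with mean and SD over mice beside the points. In the *Neurod6* panels (6 mice) *Cdh13* is higher in positive cells of every mouse, *Cdh6* also but by little in mouse 3, and *Cdh12* mainly in mouse 5. In the *Aldh1a7* panels (7 mice) *Cdh8* and *Cdh11* are higher and *Cdh7* lower in every mouse.

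For *Grp*, 7 mice had at least 3 cells of each class (76 positive and 121 negative cells), and none of the 10 cadherins passed the test. In edgeR 1 of 12517 genes (0.00799%) was called, *Grp* itself, which the class rule sets. DESeq2 called 51 genes (0.416%), *Grp* among them, and none of the 10. At an unadjusted p under 0.05 there were 3 of the 10 cadherins, beside 5.9% of all genes. *Cdh8*, *Cdh11* and *Cdh13* were those 3, and each was higher in *Grp*+ cells in 7 of 7 mice, with overlapping ranges.

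*Cdh8* stood at 152.1, 252.4, 332.6, 433.0, 651.9, 331.9 and 246.1 CPM in the *Grp*+ cells of mice 1, 2, 3, 5, 6, 7 and 8, and at 27.8, 166.4, 279.8, 188.7, 167.5, 137.9 and 161.8 CPM in their *Grp*- cells. The log2 difference was 1.09 (SE 0.37, unadjusted p = 0.0100, edgeR adjusted p = 0.697). *Cdh11* stood at 29.1, 69.7, 119.7, 170.6, 173.5, 70.9 and 136.5 CPM in the *Grp*+ cells of the same mice, and at 24.9, 50.7, 97.8, 91.0, 17.8, 51.9 and 42.2 CPM in their *Grp*- cells, a log2 difference of 1.03 (SE 0.41, adjusted p = 0.798). For both, the highest *Grp*+ value came from mouse 6 and the lowest from mouse 1. *Cdh13* averaged 650.6 ± 168.6 against 382.6 ± 145.5 CPM, a log2 difference of 0.77 (SE 0.28, adjusted p = 0.772). The remaining 7 cadherins lay between -0.89 (*Cdh4*) and 0.55 (*Cdh6*), and the median of the 10 was 0.19, beside -0.016 over all genes.

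Over the 7 mice and all their cells, the 9 dopamine markers summed to between 13194.1 and 21480.4 CPM in *Grp*+ and between 4692.9 and 18233.6 CPM in *Grp*- sums, and astrocyte markers reached 770.3 CPM in the highest *Grp*- sum against 0.667 CPM in the highest *Grp*+ sum. Oligodendrocyte markers reached 2734.6 against 96.4 CPM and GABA neuron markers 1434.0 against 762.9 CPM, and DESeq2, but not edgeR, called the oligodendrocyte gene *Mbp* (log2 difference -3.26, DESeq2 adjusted p = 0.0323, edgeR adjusted p = 0.519). In cells with both *Th* and *Slc6a3*, the log2 differences were 1.04 for *Cdh8* (SE 0.50), 1.02 for *Cdh11* (SE 0.48) and 0.66 for *Cdh13* (SE 0.25), and none was called.

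Because most *Neurod6*+ cells are also *Grp*+, the comparison was repeated in cells without *Neurod6*, in 6 mice. There the log2 difference was 1.04 (SE 0.35) for *Cdh8*, 1.17 (SE 0.42) for *Cdh11* and -0.049 (SE 0.33) for *Cdh13*. None of the 3 was called.

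For *Aldh1a7*, 7 mice had at least 3 cells of each class (74 positive and 117 negative cells). *Cdh8* rose in *Aldh1a7*+ cells, *Cdh11* was higher in every mouse without passing the test, and *Cdh7* was lower in every mouse without passing it. In edgeR, 1 of the 10 cadherins was called, beside 52 of 12781 genes (0.407%), and DESeq2 called 2 of the 10 beside 338 of 12533 genes (2.7%). Both counts over all genes include *Aldh1a7* itself. At an unadjusted p under 0.05 there were 4 of the 10, beside 11.0% of all genes.

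*Cdh8* stood at 453.3, 349.5, 769.5, 423.6, 924.9, 391.6 and 315.5 CPM in the *Aldh1a7*+ cells of mice 2 to 8. In their *Aldh1a7*- cells it stood at 89.3, 191.5, 80.2, 117.0, 235.0, 204.0 and 167.8 CPM. The classes did not overlap. The highest values in *Aldh1a7*+ cells were those of the female mice 4 and 6, each from 4 cells. The means were 518.3 ± 233.6 and 155.0 ± 60.1 CPM (SD, n = 7 mice), a log2 difference of 1.74 (SE 0.30, edgeR adjusted p = 0.0140). *Cdh8* was positive in 73 of 74 *Aldh1a7*+ cells (98.6%, interval 92.7 to 100) and 95 of 135 *Aldh1a7*- cells (70.4%, interval 61.9 to 77.9). With the mouse as a block the log2 difference was 1.72 and the adjusted p 0.0525, with 29 genes (0.227%) called in all. With at least 5 cells in each class, which left out mice 4 and 6, it was 1.33 and the edgeR adjusted p 0.0575. The call was also lost without mouse 2 (adjusted p = 0.0655) or mouse 5 (0.0692), and the adjusted p was at the threshold without mouse 4. It was kept in cells without *Neurod6* and *Grp*, where the log2 difference was 2.33 (SE 0.36, adjusted p = 0.0242, 4 mice).

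*Cdh11*, another type II cadherin, stood at 118.3, 113.1, 136.0, 165.3, 194.0, 106.9 and 102.4 CPM in the *Aldh1a7*+ cells of mice 2 to 8, and at 31.0, 81.8, 23.6, 68.3, 59.5, 48.7 and 97.3 CPM in their *Aldh1a7*- cells. These classes did not overlap either, although mouse 8 differed little. The log2 difference was 1.19 (SE 0.29) with an edgeR adjusted p of 0.0921. DESeq2 called it (adjusted p = 0.00611), as did edgeR in cells with at least 250000 reads (adjusted p = 0.0336). *Cdh11* was positive in 71 of 74 *Aldh1a7*+ (95.9%) and 80 of 135 *Aldh1a7*- cells (59.3%), and the thinned shares were 93.2% and 48.1%.

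*Cdh7* stood at 17.7, 6.44, 0.420, 4.24, 1.85, 18.0 and 31.9 CPM in the *Aldh1a7*+ cells of mice 2 to 8, and at 19.8, 34.8, 1.68, 25.5, 50.8, 39.9 and 91.3 CPM in their *Aldh1a7*- cells. All 7 mice were lower in *Aldh1a7*+ cells, with overlapping ranges. The log2 difference was -1.71 (SE 0.77, unadjusted p = 0.0408, edgeR adjusted p = 0.419), and 11 of 74 *Aldh1a7*+ (14.9%) and 59 of 135 *Aldh1a7*- cells (43.7%) were positive.

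The type I genes were lower on average in *Aldh1a7*+ cells, without passing the test. *Cdh4* stood at 75.6, 9.36, 8.82, 15.8, 0.308, 27.4 and 68.9 CPM in the *Aldh1a7*+ cells of mice 2 to 8, and at 52.4, 13.9, 75.0, 39.3, 154.8, 97.3 and 53.6 CPM in their *Aldh1a7*- cells. The log2 difference was -1.23 (SE 0.70, edgeR adjusted p = 0.557), with 5 of 7 mice lower, and it was -0.38 with at least 5 cells in each class, which left out mice 4 and 6. *Cdh2* had a log2 difference of -0.97 (SE 0.45, unadjusted p = 0.0480, adjusted p = 0.449), lower in 6 of 7 mice, at 26.8 ± 16.8 against 52.4 ± 32.0 CPM, and -2.02 in cells without *Neurod6* and *Grp*. The other 5 cadherins lay between -0.75 (*Cdh12*) and 0.84 (*Cdh9*), with *Cdh13* at 0.043 (SE 0.38) and *Cdh10* at -0.028 (SE 0.30). The median of the 10 was 0.0075, beside 0.00 over all genes.

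*Slc6a3*, the dopamine transporter, also rose in *Aldh1a7*+ cells, with a log2 difference of 1.27 (SE 0.24, edgeR adjusted p = 0.0334), and *Th* had 0.62 (adjusted p = 0.289). The 9 dopamine markers summed to between 15601.9 and 22851.9 CPM in *Aldh1a7*+ and between 8347.1 and 17739.1 CPM in *Aldh1a7*- sums. Oligodendrocyte markers reached 5431.3 CPM in the highest *Aldh1a7*- sum against 52.3 CPM in the highest *Aldh1a7*+ sum, and the 3 GABA neuron markers reached 1266.0 against 265.6 CPM. In cells with both *Th* and *Slc6a3*, *Cdh8* had a log2 difference of 1.64 (adjusted p = 0.113).

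**Figure D4:**
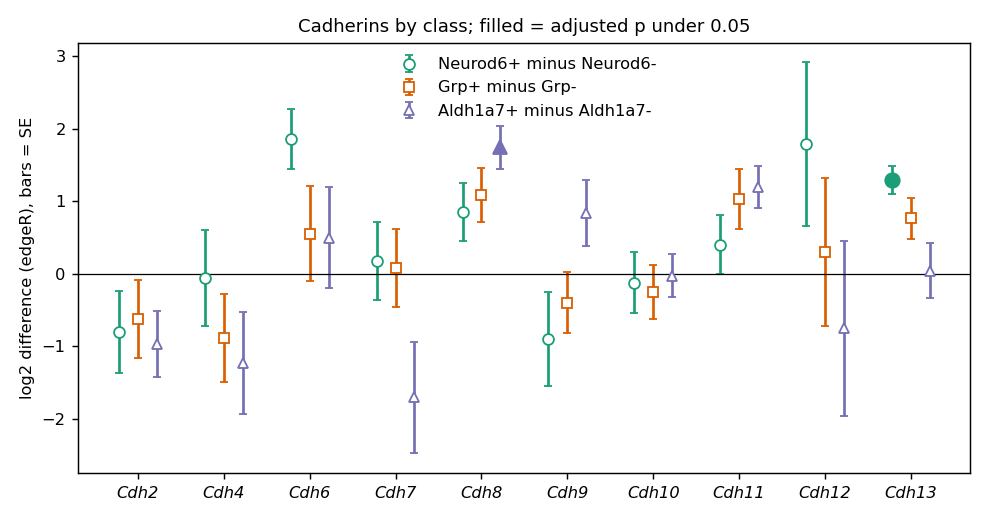
Log2 difference of each cadherin between positive and negative cells for *Neurod6* (green circles, 6 mice), *Grp* (orange squares, 7 mice) and *Aldh1a7* (violet triangles, 7 mice), with SE, from edgeR. Filled symbols mark the adjusted p under 0.05, which are *Cdh13* for *Neurod6* (1.29) and *Cdh8* for *Aldh1a7* (1.74). The 3 comparisons share mice and many cells.

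When each cell was placed in 1 class only, the cadherins gave each class a set of levels, shown as means of the cells. The 49 *Neurod6*+ cells had the highest mean of *Cdh13* (911.8 CPM) and of *Cdh6* (80.6 CPM), and a median of 6 cadherins per cell. The 34 *Grp*+ *Neurod6*- cells had *Cdh13* at 357.2 CPM, *Cdh8* at 333.1 CPM and *Cdh11* at 118.6 CPM, and *Cdh6* was positive in 5 of them (14.7%, interval 4.95 to 31.1). The 41 *Aldh1a7*+ cells without *Neurod6* and *Grp* had *Cdh8* at 355.2 CPM, positive in 40 of 41, and *Cdh11* at 113.9 CPM, positive in 39 of 41. In the same cells *Cdh7* was positive in 2 of 41 (4.88%, interval 0.596 to 16.5) and *Cdh4* in 9 of 41. The 85 cells with none of the 3 class genes had the lowest *Cdh8* (96.7 CPM, 63.5% positive) and *Cdh11* (43.1 CPM, 50.6%), the highest *Cdh4* (90.4 CPM) and *Cdh2* (67.1 CPM), and a median of 4 cadherins per cell. The same cells had the lowest *Th* (4308.5 CPM, 88.2% positive) and *Slc6a3* (1835.0 CPM) of the 4 classes, and they held all but 1 of the 23 cells with *Th* under 500 CPM, in which *Cdh4* averaged 140.1 CPM and *Cdh2* 112.0 CPM. These values are descriptions over cells, the classes hold different numbers of cells from each mouse, and median depth ran from 732506 reads in the last class to 810098 in the first.

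**Figure D5:**
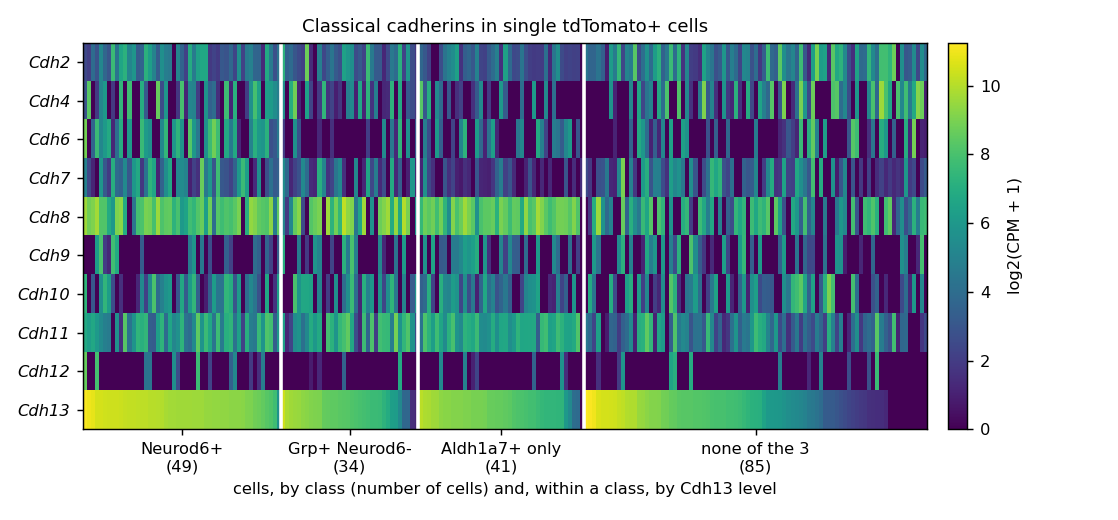
Log2(CPM + 1) of the 10 cadherins (lines) in the 209 cells (columns), grouped into *Neurod6*+ (49), *Grp*+ *Neurod6*- (34), *Aldh1a7*+ without the other 2 (41) and none of the 3 (85), and ordered by *Cdh13* within each. *Cdh8* and *Cdh11* are high across most *Aldh1a7*+ cells, where *Cdh7* is mostly dark, and *Cdh13* is at or near 0 in the cells at 1 end of the last class.

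Between male and female mice edgeR called none of the 10 cadherins, beside 5 of 15528 genes (0.0322%). Of the 10, 1 had an unadjusted p under 0.05 beside 8.12% of all genes, and DESeq2 called none of the 10 beside 1.27% of all genes. That gene was *Cdh12*, at 5.45, 4.53, 25.7, 10.8 and 9.51 CPM in the male mice 2, 3, 5, 7 and 8 and at 2.63, 2.63 and 1.17 CPM in the female mice 1, 4 and 6. The sexes did not overlap, and the log2 difference was 2.38 (SE 0.77, edgeR adjusted p = 0.513). *Cdh4* went the other way, at 61.8, 11.7, 29.4, 86.2 and 59.1 CPM in the male and 157.4, 55.7 and 120.5 CPM in the female mice, a log2 difference of -1.17 (SE 0.56, adjusted p = 0.634). Female mice gave 47 cells and male mice 162. The female mice 1, 4 and 6 were aged P25, P33 and P36 and the male mice P24 to P28, so that sex and age were not separated. All 3 female mice were run on 1 C1 machine together with 2 of the male mice, and the other 3 male mice on a second machine. In the 5 mice of the machine that ran both sexes, the log2 difference was 1.91 for *Cdh12* (SE 1.00, edgeR adjusted p = 1.0) and -0.59 for *Cdh4* (SE 0.48, adjusted p = 1.0). Summed markers of the cell classes were also uneven between the sexes, although edgeR called none of those given here. The sum of *Aldh1a7*, *Aldh1a1*, *Sox6*, *Ndnf* and *Kcns3* ran from 2689.4 to 4312.4 CPM in male and from 1035.7 to 2514.2 CPM in female mice. It was mostly *Aldh1a1* (mean over cells 2828.0 CPM, the others 37.8 to 137.1 CPM). It does not measure nigral cells, as it ran from 3766.2 to 6423.9 CPM in *Neurod6*+ and from 65.9 to 4214.9 CPM in *Neurod6*- sums. *Sox6* alone went the other way there (3.82 against 42.4 CPM). In male and female mice all 9 dopamine markers summed to between 12010.7 and 19347.1 and between 8938.1 and 12149.7 CPM, and *Neurod6* stood at 46.4 ± 26.7 and 10.8 ± 10.5 CPM. The part of these in the sex differences was not tested. Whether a class difference itself depended on sex was tested with 1 female mouse for *Neurod6* and 2 each for *Grp* and *Aldh1a7*, which leaves little to compare. The lowest adjusted p were 0.0583 for *Cdh10* and 0.0676 for *Cdh8*, both for *Neurod6*, where the female side is a single mouse (male minus female log2 difference 3.26 and -2.64).

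Of 10 other cadherin genes, *Cdh18* was positive in 79 of 209 cells (37.8%), *Cdh20* in 32 (15.3%), and *Cdh15* and *Cdh22* in 20 each, while *Cdh1* (E-cadherin) and *Cdh3* (P-cadherin) had 10 reads in none. Enough reads for a class test were present for 4 of these 10. For *Neurod6*, *Grp* and *Aldh1a7* edgeR called none of the 4, beside 0.0555%, 0.00799% and 0.407% of all genes. None had an unadjusted p under 0.05, beside 6.2%, 5.9% and 11.0% of all genes. DESeq2 called none, beside 1.06%, 0.416% and 2.7%. Genes of the catenin families differed in how often they were found: *Ctnnb1* (beta-catenin) was positive in 86.1% of cells, *Ctnna1* and *Ctnna2* (alpha-catenins) in 72.2% and 66.0%, and *Ctnnd2* (delta-catenin) in 97.1%, while *Ctnnd1* was positive in 30.1%, *Jup* (gamma-catenin) in 19.1%, *Ctnna3* in 1.91% and *Arvcf* in none. Of 20 catenins and junction partners 17 were tested. In the same comparisons edgeR and DESeq2 called 0 of them, beside the shares of all genes just given. At an unadjusted p under 0.05 there were 0, 3 and 0 for *Neurod6*, *Grp* and *Aldh1a7* (beside 6.2%, 5.9% and 11.0% of all genes). *Ctnnb1* differed by 0.050 on the log2 scale for *Neurod6* (SE 0.19) and 0.0049 for *Aldh1a7* (SE 0.29).

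The delta-protocadherins, relatives of the cadherins with their own cytoplasmic partners, were all 10 tested. For *Aldh1a7* edgeR called 2 of 10 (beside 0.407% of all genes), both lower: *Pcdh7* fell from 303.0 ± 111.2 to 85.2 ± 32.8 CPM (log2 difference -1.83, SE 0.29, adjusted p = 0.00790) and *Pcdh11x* from 61.6 ± 52.7 to 2.66 ± 3.49 CPM (-4.40, SE 0.89, adjusted p = 0.0406). With the mouse as a block *Pcdh7* was still called (adjusted p = 0.0255) and *Pcdh11x* was not (adjusted p = 0.118). For *Neurod6* and *Grp* edgeR called 0 of 10, with 2 and 4 at an unadjusted p under 0.05 (beside 6.2% and 5.9% of all genes), and DESeq2 called 0 and 2 (beside 1.06% and 0.416%). The 2 for *Grp* went opposite ways, with log2 differences of -1.08 for *Pcdh7* and 1.42 for *Pcdh18*. The median log2 difference of the 10 was -1.06 for *Aldh1a7*, -0.82 for *Neurod6* and -0.42 for *Grp*, in comparisons that share cells.

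The genes whose levels were most like those of each cadherin were found over the 209 cells among 12105 genes, by Pearson's correlation of log2(CPM + 1) after the mean of each mouse was taken out. Among the genes most like *Cdh13* were *Th* (r = 0.55) and *Slc10a4* (0.53). *Cdh8* was most like *Aldh1a1* (r = 0.58), *Chrna3* (a nicotinic receptor subunit, 0.47) and *Serpine2* (0.46). *Cdh11* was most like *Ctnna1* (alpha-catenin, r = 0.48), an entry named *Msi2.1* (0.47) and *Chrna3* (0.45), and *Cdh6* was most like *Igfbp4* (0.39), *Neurod6* (0.35) and *Plch1* (0.34).

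The correlations of the other 6 cadherins were at most 0.37, weak values in sparse counts. *Cdh7* was most like *Fam196a* (r = 0.37), *Lsamp* (0.36) and *Grin2a* (0.36), and *Cdh12* like *Ecel1* (0.36), *Pak4* (0.35) and *Gad1* (0.30). *Cdh2* was most like *Dchs1* (a large atypical cadherin, r = 0.32), *Mgat5* (0.30) and *Glra2* (0.30), and *Cdh10* like *Serpinb6a* (0.32), *Ccnt2* (0.28) and *Zfp758* (0.26). *Cdh4* was most like *Ryr3* (r = 0.30), *6820408C15Rik* (0.30) and *Gda* (0.29), and *Cdh9* like *Fam19a4* (0.28), *Lrrc49* (0.28) and *Gm11762* (0.26). The cells share runs and depth, so that these are descriptions without a test.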

How the data were processed

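Single-cell RNA-seq libraries from 8 mice were used. The deposited counts are whole reads per gene and cell made by the authors, who trimmed with Trimmomatic 0.3.2, aligned to GRCm38 with TopHat2 2.1.1 and counted with featureCounts 1.5.0-p3 on RefSeq genes, leaving out reads that matched more than 1 gene. The authors excluded wells with doublets by eye. Spike-in and reporter entries, 0.00457% of reads, were left out here, as were cells under 500000 reads. The authors' cluster calls were not used.

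For each class the counts were summed per mouse where both classes had 3 or more cells, and the sums entered the quasi-likelihood test of edgeR 4.0.16 (R 4.3.3; TMM, filterByExpr) over all genes, with Benjamini-Hochberg adjustment at 0.05. The sum of a mouse is the replicate, and classes were compared within the same animals. The mouse pairs the classes: deviations from the class means correlated in every pair, by 0.066 to 0.29 for *Neurod6*, 0.033 to 0.34 for *Grp* and 0.041 to 0.20 for *Aldh1a7*. The test was first made without that block, and the blocked value is printed where it changed a call. DESeq2 1.42.0 was an alternative, as were other read minima, thinning, cell subsets, normalization, filters and leaving out each mouse. The tests were run on simulated data first, where DESeq2 made more false calls than edgeR in each comparison. The simulated counts used edgeR's dispersions and had no mouse effect, unlike the paired sums. Exon lengths came from GENCODE vM21.

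All 10 cadherins are reported, with values per mouse for those called or differing by at least 1 on the log2 scale. The class genes, *Th* and *Slc6a3* are named, as are up to 6 called genes of each list and the 3 most similar genes of each cadherin, of which 1 is not reported here. Values of other genes were chosen after they were seen. The cadherins, gene lists and tests were chosen with earlier results of these data known.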

Additional observations from a re-analysis of the deposited data

Results flagged for a closer look

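Of 70 sets of mouse values of the 10 cadherins that were examined for a sample far from the rest, 6 held one, and chance alone marks about 1 set in 20. All 6 concerned mouse 5, and 5 of them were *Cdh12*. In all cells *Cdh12* was at 25.7 CPM in mouse 5 and 10.8 CPM in the next of 8 mice. It was at 141.5 CPM against 12.9 CPM in *Neurod6*+ cells, 46.5 CPM against 11.8 CPM in *Grp*+ cells, 16.9 CPM against 7.30 CPM in *Aldh1a7*+ cells and 31.7 CPM against 13.0 CPM in *Aldh1a7*- cells. These sets share cells. *Cdh13* in *Neurod6*+ cells was at 1428.0 CPM in mouse 5 and 963.5 CPM in the next of 6 mice.

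The 175 cells under 500000 reads were left out of the comparisons, except where the minimum was set at 250000 reads as an alternative, and also held reads of every cadherin. Summed over these cells *Cdh13* was at 248.7 CPM, above the 0.121 CPM that 3 reads would give, and at 504.8 CPM summed over the 209 cells used. *Cdh8* was at 228.1 and 247.5 CPM, and *Cdh2* at 94.7 and 44.9 CPM.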

How the results depend on the processing

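The number of the 10 cadherins called for *Neurod6*, 1, became 0 with positive cells taken from 1 or 50 reads, with thinning, with *Th* and *Slc6a3* cells only, with at least 5 cells in each class, with the mouse as a replicate block, without a filter on low counts and in *Aldh1a7*- cells only. It became 2 with DESeq2, and ranged from 0 to 2 when each mouse was left out. For *Aldh1a7*, the number called, 1, became 2 with at least 250000 reads and with DESeq2, and 0 with *Th* and *Slc6a3* cells only, with at least 5 cells in each class and with the mouse as a replicate block, and ranged from 0 to 1 when each mouse was left out. It stayed at 0 for *Grp* in 18 alternatives and for sex in 13. The log2 difference of *Cdh12* for *Neurod6* ranged from -0.64 to 2.36 when each mouse was left out, the lowest without mouse 5, and that of *Cdh13* for *Grp* turned to -0.049 in cells without *Neurod6*. The median of 5 cadherins per cell was 7 from 1 read, 3 from 50 reads and 4 after thinning, and 5 to 5 when each mouse was left out. The other single-gene values examined kept their direction in all alternatives, but moved by over 1.5-fold for *Aldh1a7* in *Cdh4* (-0.38, at least 5 cells in each class), *Cdh11* (1.80, positive from 1 read) and, in cells without *Neurod6* and *Grp*, *Cdh2* (-2.02), *Cdh7* (-2.5) and *Cdh8* (2.33). *Cdh12* for *Neurod6* was 0.16 under the block, 1.08 from 1 read and 1.19 in *Aldh1a7*- cells, and the block changed no other cadherin call. Over all genes edgeR called 7 for *Neurod6* and DESeq2 127, with 1 under the block. For *Grp* these were 1, 51 and 1, for *Aldh1a7* 52, 338 and 29, and for sex edgeR called 5 and DESeq2 190. Each of these class counts includes the class gene itself, and the counts of 1 are that gene alone. Leaving out each mouse gave 1 to 18 for *Neurod6*, 1 to 4 for *Grp* and 14 to 87 for *Aldh1a7*. Classes rest on as few as 3 cells in a mouse, and detection of a gene near 10 reads depends on depth.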
